A study of Mus musculus with 6 samples.

Results

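p65, the protein made by Rela, bound 8525 regions in epidermal cells of adult mice, and 1644 of them (19.3%) were also called in aged mice given antibodies against IL-17A and IL-17F but not in aged mice given control IgG. These 1644 regions, called shared sites here, were adult peaks that overlapped at least 1 bp of an aged/anti-IL-17A/F peak and no aged/IgG control peak. The sites were selected on the measured peak calls of all 3 conditions, so that presence and absence in the lists are a description and no finding. In chromatin immunoprecipitation followed by sequencing (ChIP–seq), an antibody pulls down DNA bound by p65 and the places it occupied appear as peaks of sequenced fragments. All mice were C57bl/6J, and the adult mice received no treatment. The authors merged the aligned reads of 4 mice into 1 pool per condition before calling peaks. Aged mice were injected intraperitoneally with the antibodies or with IgG for 12 weeks from 73 weeks of age, so adult and aged mice differed in age and in having been injected. With 1 pool of merged reads a condition, the peak lists gave no spread between mice and no test between conditions. All 95% intervals below cover counting error only.

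p65 is a subunit of NF-κB, a family of transcription factors that inhibitor proteins hold in the cytoplasm until receptors for cytokines such as TNF, IL-1 and IL-17 release them. In the nucleus, NF-κB dimers bind a short DNA motif, the κB site, and can also occupy promoters and enhancers held by other factors, such as AP-1. In the epidermis the pathway serves defence and inflammation, and it must be kept in balance with the differentiation of keratinocytes, the cells that form the skin barrier.

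The aged/IgG control pool gave 4169 peaks, the aged/anti-IL-17A/F pool 6014 and the adult pool 8525. All 8525 entries of the adult list bear names with the same beginning as those from aged/anti-IL-17A/F, and the lists were used as GEO's labels assign them; values with both lists exchanged are given for location, GC content and motifs, and each statement that a site was stronger in one of both lists rests on these labels. Of the 10 keratinocyte marker genes, 10 had an adult peak, against 3 of 9 immune cell markers, 1 of 7 fibroblast markers, 2 of 5 endothelial markers and 0 of 7 melanocyte markers. Over all protein-coding genes with a curated transcript, 4838 of 20971 had an adult peak. A p65 peak does not show that a gene was expressed. Read depth behind single peaks is unknown from these lists.

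The DNA under 5 of the strongest shared sites in adult, 50 bases to either side of the summit, is shown because it displays both kinds of site, with and without a κB motif. Letters are those of the plus strand of mm10 (RefSeq GRCm38.p6), 5′ to 3′, and capitals mark matches to the NF-κB motif on either strand.
Resf1: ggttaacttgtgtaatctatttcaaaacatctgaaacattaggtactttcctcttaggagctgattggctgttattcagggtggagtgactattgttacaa
Ptgs1: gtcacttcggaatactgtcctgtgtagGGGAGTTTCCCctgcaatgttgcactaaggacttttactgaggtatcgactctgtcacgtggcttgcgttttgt
Tmem131l: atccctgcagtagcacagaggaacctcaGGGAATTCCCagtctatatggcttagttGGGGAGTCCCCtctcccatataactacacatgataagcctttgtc
Ddi2: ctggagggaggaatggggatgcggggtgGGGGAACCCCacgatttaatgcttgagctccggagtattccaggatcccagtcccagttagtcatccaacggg
Zbtb34: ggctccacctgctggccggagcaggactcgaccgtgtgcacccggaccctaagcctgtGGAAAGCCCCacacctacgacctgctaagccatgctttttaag
These stretches lie at chr6:149261071-149261171, chr2:36214235-36214335, chr3:84021864-84021964, chr4:141723570-141723670 and chr2:33431578-33431678, and each bears the name of the gene whose transcription start site (TSS) is nearest. The Ptgs1 site holds 2 overlapping matches and the Tmem131l site 3, while the Resf1 site, which had the highest fold enrichment among the shared sites, holds none.

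The shared sites at Krt14 and Evpl, structural genes of the epidermis that the study names, and 4 sites at genes of the lists below are shown in the same way.
Krt14: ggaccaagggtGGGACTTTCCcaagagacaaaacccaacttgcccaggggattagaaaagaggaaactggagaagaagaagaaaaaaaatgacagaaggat
Evpl: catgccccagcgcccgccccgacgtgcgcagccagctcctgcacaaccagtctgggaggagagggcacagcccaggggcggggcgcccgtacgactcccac
Tgm1: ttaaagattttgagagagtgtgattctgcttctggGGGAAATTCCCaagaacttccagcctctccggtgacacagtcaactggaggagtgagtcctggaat
Ezh2: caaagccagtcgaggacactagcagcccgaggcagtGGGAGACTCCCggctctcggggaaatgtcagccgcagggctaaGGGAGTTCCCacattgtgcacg
Mafg: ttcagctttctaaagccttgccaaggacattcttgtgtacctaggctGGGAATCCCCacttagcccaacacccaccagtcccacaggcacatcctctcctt
Fosb: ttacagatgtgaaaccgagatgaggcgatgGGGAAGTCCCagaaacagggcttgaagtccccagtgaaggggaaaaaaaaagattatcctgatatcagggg
They lie at chr11:100206117-100206217, chr11:116238177-116238277, chr14:55702800-55702900, chr6:47594164-47594264, chr11:120630817-120630917 and chr7:19326024-19326124. The last 4 were taken because they have the motif near the summit. The Krt14 site carries GGGACTTTCC, which was also the most frequent form of the motif in the shared sites.

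Shared sites were of middling strength in adult. Their fold enrichment, the authors' ratio of fragments at the peak to the local background, had a median of 3.43 (quartiles 2.96 and 4.02) in adult and ranged from 1.91 to 7.07. In the overlapping aged/anti-IL-17A/F peaks the median was 3.20 (quartiles 2.82 and 3.64). Adult peaks called in every condition had a median of 5.18 in adult (n = 3502), and those called in neither aged group 3.03 (n = 3002), so the shared sites lay between both. Strength is tied to the peak calls that define these groups, so their order is a description and no finding.

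**Figure D1:**
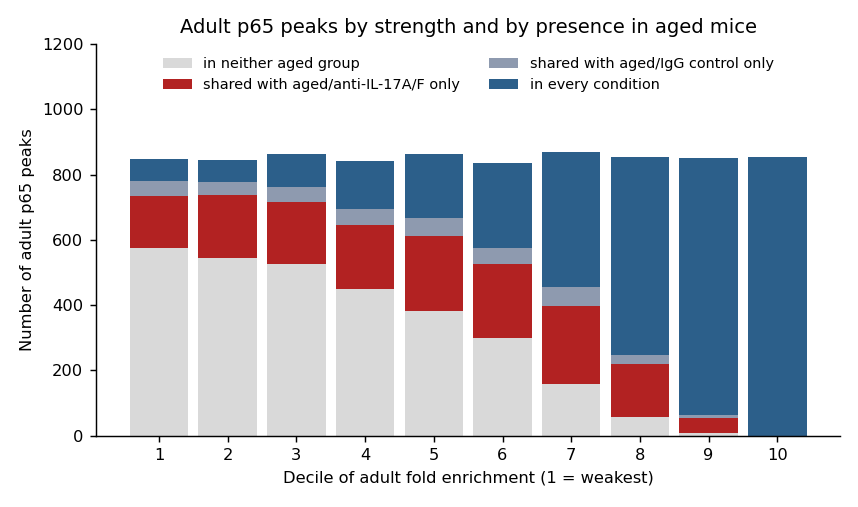
Number of adult p65 peaks (vertical axis) in each decile of adult fold enrichment (horizontal axis, 1 is the weakest), with colours for presence in the aged lists. Shared sites (red) were most frequent in decile 7, with 237 of 870 peaks, and absent from decile 10, where all 853 peaks were called in every condition.

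The share of adult peaks that were shared sites was highest in the middle deciles and fell at the top. It was 19.0% (95% Wilson interval 16.5–21.8%) in the weakest decile, 27.2% (24.4–30.3%) in decile 7 and 5.63% (4.28–7.39%) in decile 9. The middle deciles thus contributed most, while the weakest adult peaks were mainly called in neither aged group. Since strength is tied to the calls, these shares too are a description.

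Within a shared site, both lists placed the peak at much the same position. The overlap had a median of 343 bp, and the summits lay a median of 42 bp apart, with 57.6% within 50 bp. Among adult peaks called in every condition and weighted to the same deciles of adult fold enrichment, 59.2% had summits that close, a difference of −1.58 percentage points (95% interval −5.19 to 2.04). Both groups were chosen for overlap with an aged/anti-IL-17A/F peak, so their closeness in position is a description and no finding.

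Most shared sites were not at the edge of a control peak. The nearest aged/IgG control peak was a median of 55620 bp away, and 96 of 1644 sites (5.84%) had one within 1000 bp. In 18 sites (1.09%) an overlapping aged/anti-IL-17A/F peak also overlapped a control peak. In 12 of these the aged/anti-IL-17A/F peak also overlapped another adult peak that was called in every condition. A −log10 q under 5, near the calling limit, was found in adult for 68 sites and in adult or aged/anti-IL-17A/F for 176 (10.7%). Whether a site absent from a list had signal just under the limit there cannot be told from peak lists.

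**Figure D2:**
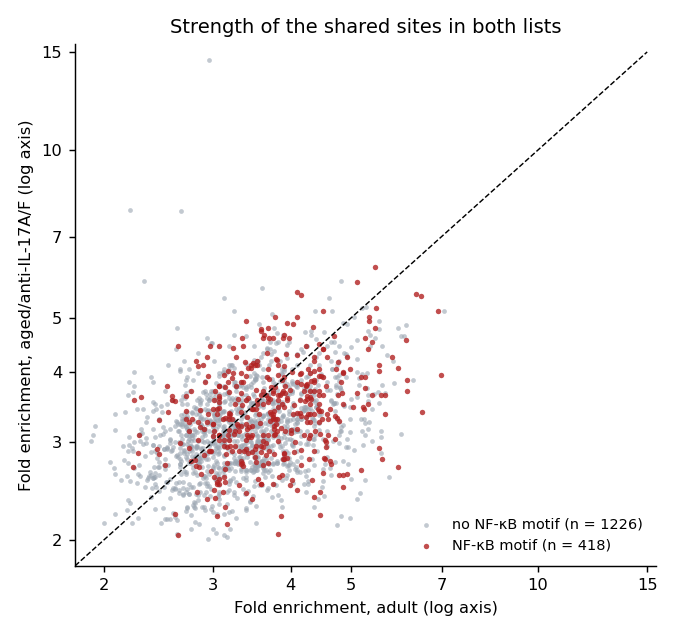
Fold enrichment of each of the 1644 shared sites in adult (horizontal, log axis) against aged/anti-IL-17A/F (vertical, log axis), with sites that hold an NF-κB motif in red and the line of equality dashed. The aged/anti-IL-17A/F value was above the adult value in 627 sites (38.1%). The highest vertical value, 14.5, belongs to an aged/anti-IL-17A/F peak near Junb that also covers a control peak.

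Ranked within its own list, the aged/anti-IL-17A/F peak stood above the adult peak in 34.8% of the shared sites (32.5–37.1%). The median percentile of fold enrichment was 43.8 for the adult peak and 32.4 for its aged/anti-IL-17A/F partner. The lists hold different numbers of peaks, so a percentile in one does not equal a percentile in the other.

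The 20 sites of highest fold enrichment in adult whose nearest gene is protein-coding ranged from 5.69 to 7.07 in adult and from 2.59 to 5.52 in aged/anti-IL-17A/F, and each was lower in the latter. The strongest, chr6:149260875-149261336, lay between genes 48308 bp before the TSS of Resf1, a factor that silences retroelements, with a fold enrichment of 7.07 in adult and 5.15 in aged/anti-IL-17A/F. A site 16135 bp before Ptgs1, which encodes the prostaglandin-forming enzyme cyclooxygenase 1, had 6.98 in adult and 3.96 in aged/anti-IL-17A/F. An intronic site of Tmem131l had 6.91 and 5.15, in the same order. These sites were selected on their adult value, so the direction of the difference is no finding.

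Several of the 20 lay at promoters. The site 117 bp before the TSS of Ddi2, a protease that activates the transcription factor Nfe2l1, had 6.52 in adult and 3.39 in aged/anti-IL-17A/F. A site 313 bp before Zbtb34, a zinc finger protein gene, had 6.48 and 5.48. At Zdhhc3, a palmitoyltransferase gene, the values were 6.36 and 5.52 for a site over the 5′ UTR. At Eef1akmt1, whose product methylates elongation factor 1A, a site 15 bp past the TSS had 6.31 in adult and 3.88 in aged/anti-IL-17A/F, without an NF-κB motif.

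Promoter sites without the NF-κB motif included the following. Ddx58, which encodes the viral RNA sensor RIG-I, had a site 194 bp past its TSS with 5.96 in adult and 4.81 in aged/anti-IL-17A/F. Ifitm3, an interferon-induced gene against viral entry, had a site 150 bp before its TSS with 5.85 and 4.19. Neither gene had a control peak.

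Others of the 20 lay away from promoters. Wnt5a, a Wnt ligand, had a site 33893 bp past its TSS that was strong in adult (5.96) and weak in aged/anti-IL-17A/F (2.70). Ptk6, an epithelial tyrosine kinase gene, had a site 1579 bp before its TSS with 5.75 in adult and 2.59 in aged/anti-IL-17A/F. Both values in the second list were low. Dsc1, a desmosomal cadherin of upper epidermal layers, had 5.71 in adult and 4.30 in aged/anti-IL-17A/F.

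Another 8 of the 20 were nearest to Myod1 (6.17 in adult, 3.88 in aged/anti-IL-17A/F), Mef2a (6.14, 4.57), Anxa2 (6.14, 4.87), Sec14l4 (6.08, 4.65), Soga1 (6.03, 4.65), Gm35060 (5.96, 4.06), Gm5148 (5.82, 4.26) and Coro6 (5.69, 3.67). Myod1 and Mef2a encode transcription factors best known from muscle, and the Mef2a site lay 105221 bp from its TSS, so the nearest gene need not be the one acted on. The Gm35060 site lay in an intron of Bin1 and the Coro6 site in an intron of Ssh2.

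By location, 619 shared sites (37.7%, 35.3–40.0%) lay within 1 kb of a TSS, 353 (21.5%) at 1 to 10 kb, 477 (29.0%) at 10 to 50 kb and 195 (11.9%) beyond 50 kb. At the middle of the peak, 46.2% of sites were between genes, 39.6% in an intron, 8.82% in a 5′ UTR, 3.77% in a coding exon, 1.22% in a noncoding exon and 0.426% in a 3′ UTR. The shared sites were thus divided between promoters and distal regions, with few in gene bodies outside introns.

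No difference in location from adult peaks of the same strength was detectable. Compared with all other adult peaks weighted to the same deciles, the share within 1 kb of a TSS differed by 0.482 percentage points (95% interval −2.17 to 3.13). Against peaks called in every condition the difference was 0.973 (−2.61 to 4.56), and against those called in neither aged group 0.428 (−2.85 to 3.70). With the lists exchanged, the difference from aged/anti-IL-17A/F peaks found in neither other list was 11.4 (7.70 to 15.2).

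Base composition followed location. GC content within 100 bp of the summit had a median of 64.2% in shared sites within 1 kb of a TSS and 51.2% in those farther away. Its mean over all shared sites, 56.2%, differed from that of strength-matched other adult peaks by −0.0731 percentage points (−0.609 to 0.463). With the lists exchanged, the difference from aged/anti-IL-17A/F peaks found in neither other list was 2.43 (1.63 to 3.23). Repeat-masked bases made up 7.78% of the windows, 1.08 percentage points (0.262 to 1.89) above matched peaks called in every condition and −0.0583 (−0.907 to 0.791) from those called in neither aged group.

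Width followed the same order as strength. At matched fold enrichment, shared sites averaged 461 bp, peaks called in every condition 524 bp and peaks called in neither aged group 416 bp. A wider peak has more positions that can overlap another, so width is tied to the choice of the sites and is given as a description.

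The NF-κB motif, a 10-base κB consensus, was present within 100 bp of the summit in 418 shared sites (25.4%, 23.4–27.6%). In windows 2000 bp away it was present in 2.19% (1.74–2.75%), and over all adult peaks in 28.5%. The motif was thus concentrated at the summits of shared sites, yet most sites lacked it. The 510 matches took 54 different forms, of which GGGACTTTCC was the most frequent with 40 matches (7.84%), followed by GGGGATTTCC with 26. GGGACTTTCC also led among peaks called in every condition, with 7.93% of matches.

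Matches lay a median of 28 bp from the summit in shared sites, 22.5 bp in peaks called in every condition and 30.5 bp in those called in neither aged group. Within 25 bp of the summit were 46.1%, 55.1% and 43.3% of them. Strength was not matched in this comparison.

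**Figure D3:**
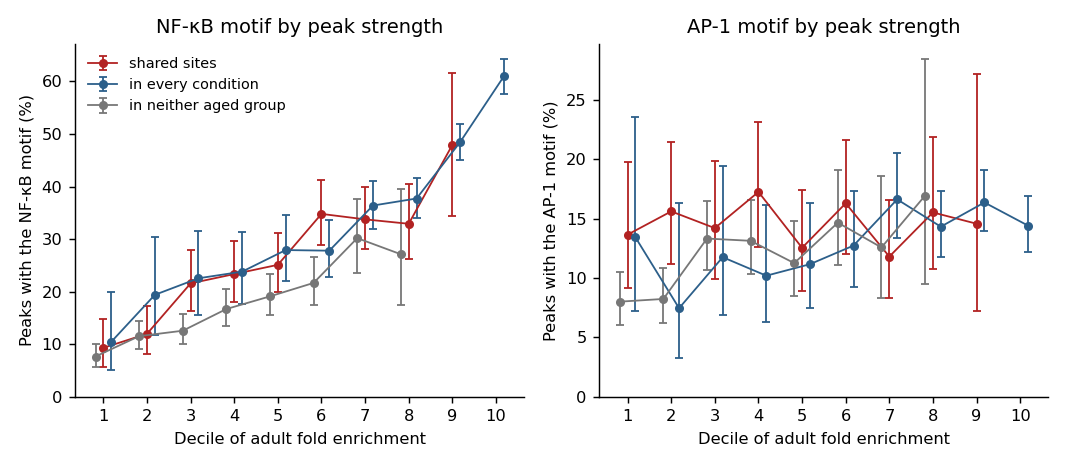
Share of peaks with the NF-κB motif (left) and the AP-1 motif (right) within 100 bp of the summit, by decile of adult fold enrichment, for shared sites and the adult peaks called in every condition or in neither aged group; bars are 95% Wilson intervals and groups under 20 peaks are not drawn. The NF-κB share of shared sites went from 9.32% in decile 1 to 47.9% in decile 9, whereas the AP-1 share stayed between 11.8% and 17.3%.

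The frequency of the NF-κB motif depended on peak strength. In shared sites it was 9.32% in the weakest decile, 25.1% in decile 5 and 47.9% in decile 9. Sites with the motif had a median fold enrichment of 3.72 in adult and 3.40 in aged/anti-IL-17A/F, and sites without it 3.33 and 3.14. The motif thus went with stronger peaks in both lists.

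At matched strength, shared sites held the NF-κB motif more often than adult peaks called in neither aged group, 25.4% against 19.0%, a difference of 6.46 percentage points (95% interval 3.53 to 9.39). The difference from peaks called in every condition was −1.44 (−4.53 to 1.65), and from all other adult peaks 3.12 (0.788 to 5.45). Without matching, the last difference was −3.77 (−6.13 to −1.41), since the strongest adult peaks are among the others. With the lists exchanged, the difference from aged/anti-IL-17A/F peaks found in neither other list was −3.16 (−7.67 to 1.35), and from all other aged/anti-IL-17A/F peaks −0.399 (−3.03 to 2.24), so the higher share held for the adult list and not for the aged/anti-IL-17A/F list. With each list reduced to an equal number of peaks, the difference from peaks in neither aged group was 4.18 (−1.87 to 10.2) and from all other adult peaks 0.586 (−4.06 to 5.23), and both intervals then held 0.

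AP-1, the dimer of Fos and Jun proteins, recognises TGANTCA, which stood in 239 shared sites (14.5%, 12.9–16.3%) against 6.24% of windows 2000 bp away. Its difference from strength-matched peaks called in neither aged group was 2.60 percentage points (0.306 to 4.88), from those called in every condition 2.16 (−0.294 to 4.62) and from all other adult peaks 2.05 (0.122 to 3.97). The last interval stayed above 0 in 6 of 13 alternatives, and the first in 9 of 13. Within 50 bp of the summit the first difference was 0.383 (−1.46 to 2.22), and with the lists exchanged −4.85 (−8.13 to −1.57). The AP-1 motif was found in 12.7% of shared sites with and 15.2% of those without the NF-κB motif, and 53 sites (3.22%) held both.

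Promoter and distal shared sites held different motifs. NF-κB was found in 18.1% (15.3–21.3%) of sites within 1 kb of a TSS and in 29.9% (27.1–32.7%) of those farther away, and AP-1 in 5.49% (3.96–7.58%) and 20% (17.7–22.6%). The p63 motif, bound by a regulator of the epidermal lineage, was found in 3.39% (2.23–5.13%) near a TSS and 10.3% (8.62–12.4%) farther away. The reverse held for GGGCGG, bound by SP and KLF factors, with 51.2% (47.3–55.1%) near a TSS and 12.0% (10.2–14.1%) farther away, and for CCGGAAG, bound by ETS factors, with 13.1% (10.7–16%) and 2.63% (1.82–3.81%). Neither NF-κB nor AP-1 was found in 1040 shared sites (63.3%), which had a median GC content of 56.7%.

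Of the 14 motifs searched on both strands, 3 gave an interval without 0 in any comparison at matched strength. Over 42 such intervals 6 left out 0, of which 2 belonged to NF-κB, 2 to AP-1 and 2 to ETS. ETS stood in 6.57% of shared sites, 1.69 percentage points (0.00366 to 3.38) above matched peaks called in every condition and 1.56 (0.0828 to 3.03) above those called in neither aged group. Among 42 intervals of 95%, some leave out 0 by chance alone. The others were CRE (TGACGTCA, 0.973% of shared sites), NFY (CCAAT, 20.3%), NRF1 (CGCATGCG, 0.791%), p63 (7.73%), GRHL (AACCGGTT, 0.183%), C/EBP (TTGCNNAA, 9.98%), TEAD (CATTCC, 12.1%), RUNX (TGTGGT, 12.0%), ISRE (GAAANNGAA, 4.32%), CTCF (AGGGGGCGC, 0.487%) and SP/KLF (26.8%). A match is a description of the letters and not evidence that a factor was bound, and matches to different motifs may overlap.

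**Figure D4:**
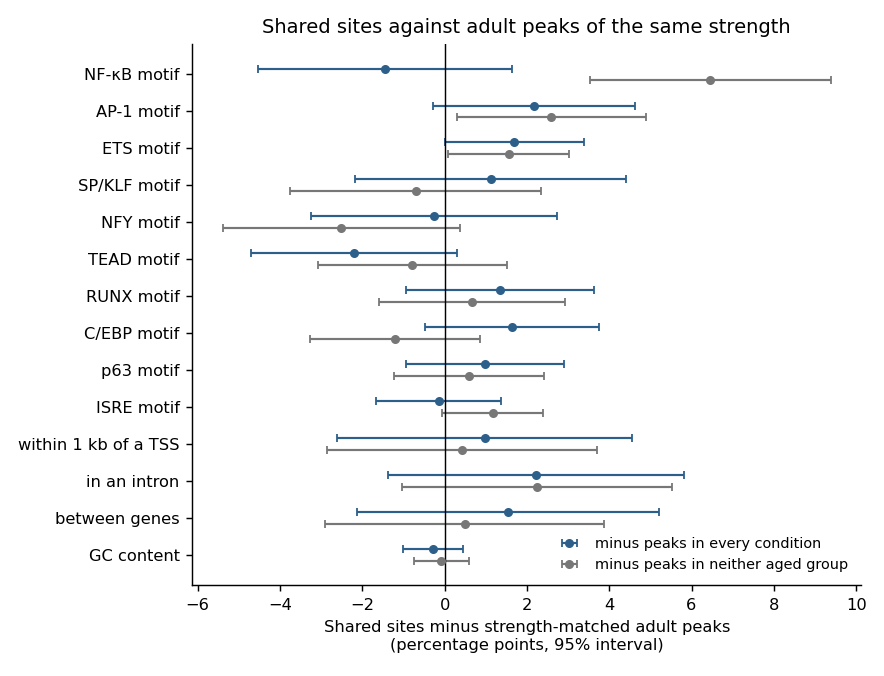
Shared sites minus strength-matched adult peaks in percentage points (horizontal axis) for motifs, location and GC content (rows), with 95% intervals for counting error; blue compares with peaks called in every condition and grey with peaks called in neither aged group. The NF-κB difference from peaks in neither aged group, 6.46, stands clear of 0, while those for TSS, introns, intergenic regions and GC content hold 0.

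The nearest gene was protein-coding for 1419 shared sites, which together named 1297 genes, 6.18% of all protein-coding genes with a curated transcript and 26.8% of the 4838 genes nearest to an adult peak. Of these 1297 genes, 860 (66.3%) had no aged/IgG control peak anywhere, and 395 also had a peak called in every condition. Among sites at protein-coding genes, a control peak elsewhere at the gene was found for 36.4% of shared sites and for 34.4% of strength-matched adult peaks called in neither aged group, a difference of 2.04 percentage points (−1.42 to 5.50) whose interval holds 0. The other genes with a shared site thus had a control peak at another position. A single shared site was found at 1196 genes, and 4 were found at each of Casz1, Egr1 and Tex44.

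Whether a gene had a shared site followed its number of adult peaks. Of genes with 1 adult peak 20.3% had one, of those with 2 34.4%, and of those with 3 or more 54.8%. The share of peaks is therefore given beside the share of genes. Over all protein-coding genes, 19.3% of 7336 adult peaks were shared sites.

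**Figure D5:**
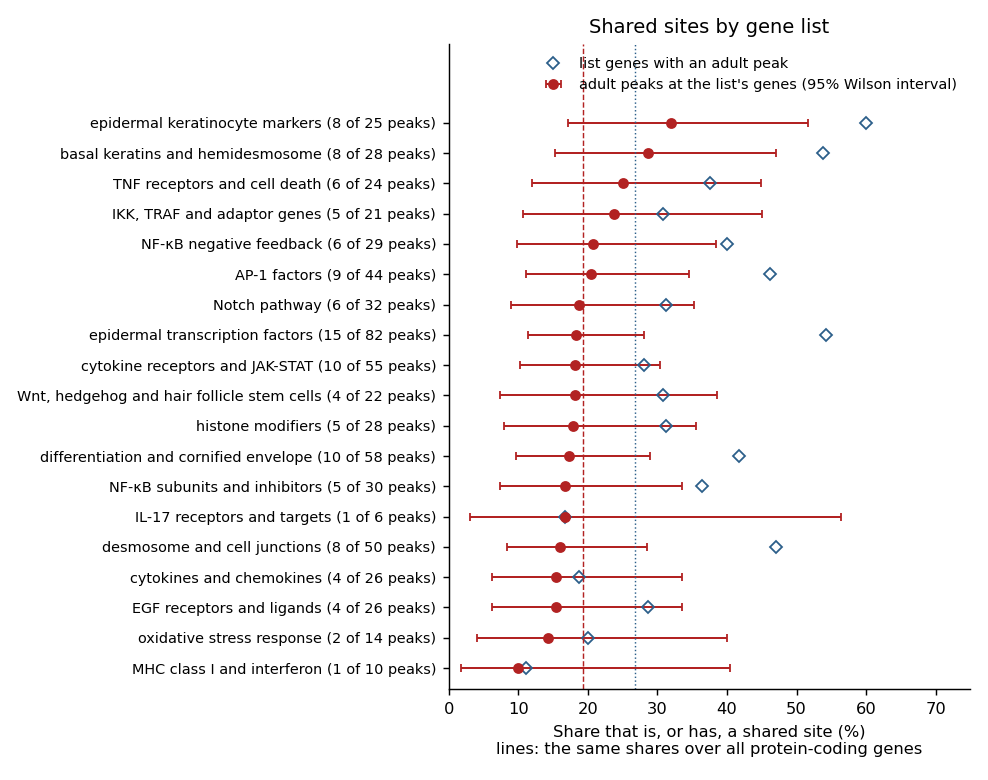
Share of adult peaks at each list's genes that were shared sites (red, 95% Wilson intervals) and share of the list's adult-bound genes with a shared site (blue diamonds); lines mark both shares over all protein-coding genes, 19.3% and 26.8%. The intervals of the 19 lists with at least 5 adult-bound genes, which are drawn, hold 19.3%; immune, fibroblast and endothelial markers, with 3, 1 and 2 such genes, are not drawn.

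Shared sites were found at structural genes of the basal epidermis. Of 13 adult-bound genes of basal keratins and the hemidesmosome, which anchors basal cells to the basement membrane, 7 had a shared site, and 5 of these 7 had no control peak, against 66.3% over all genes with a shared site. That share also holds as the background of the counts without a control peak in the lists below. Per peak the share was 8 of 28 (28.6%, 15.3–47.1%) against 19.3% over all genes, which the interval holds. Krt14, a keratin of basal cells, had a site at chr11:100205920-100206332, 96 bp before its TSS, with a fold enrichment of 3.22 in adult and 3.91 in aged/anti-IL-17A/F, and the nearest control peak was 42611 bp away. It was among the sites that were stronger in aged/anti-IL-17A/F.

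Krt5, the partner keratin of Krt14, had a site 4622 bp before its TSS with 4.37 in adult and 3.21 in aged/anti-IL-17A/F. Krt15, a keratin of basal and hair follicle stem cells, had a promoter site with 4.76 and 3.92 and an AP-1 motif. Col17a1, a hemidesmosomal collagen gene, had a site 48 bp before its TSS with 4.58 and 3.14, and Cd151, a tetraspanin that binds laminin-receptor integrins, one with 4.83 and 3.14. Col17a1 alone of the 4 had a control peak elsewhere. Sites named for this and the following lists were selected on their adult value, which favours a higher value in adult, and over all shared sites 38.1% were higher in aged/anti-IL-17A/F. The 10 keratinocyte markers, which share Krt5, Krt14, Krt15 and Col17a1 with this list, had a shared site at 6 genes and 8 of 25 peaks (32.0%, 17.2–51.6%).

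Genes of differentiation and of the cornified envelope, the protein shell of the outermost cells, had a shared site in 10 of 24 adult-bound members, 3 of which lacked a control peak. Per peak the share was 10 of 58 (17.2%, 9.64–28.9%), and 48.3% of the list's peaks were called in neither aged group, against 35.6% over all protein-coding genes. Tgm1, a transglutaminase that cross-links the envelope, had an intronic site with 5.62 in adult and 2.79 in aged/anti-IL-17A/F and the motif shown above. Sbsn, a secreted protein gene of the upper epidermis, had a promoter site with 4.99 and 3.47 and 2 AP-1 matches, and its nearest control peak was 620 bp away.

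Tgm3, another transglutaminase gene, had a site 12293 bp before its TSS with 4.48 in adult and 3.97 in aged/anti-IL-17A/F, and Alox12b, a lipoxygenase needed for barrier lipids, one with 4.63 and 2.78. The Alox12b site was 271 bp from a control peak. Evpl, which encodes the envelope scaffold envoplakin, had a weak site at chr11:116237919-116238347 over its promoter, with 2.39 in both adult and aged/anti-IL-17A/F, −log10 q of 5.23 and 4.65, and no NF-κB motif. These values stood at percentiles 3.58 and 2.91 of their lists.

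Of the other genes the study names, Dll1, a Notch ligand gene, had an adult peak with a fold enrichment of 2.34 that was called in neither aged list, and Il9 and Crlf2 had no adult peak. None of the 3 had a shared site.

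Desmosomal and junctional genes had a shared site in 8 of 17 adult-bound members, 2 of them without a control peak, and in 8 of 50 peaks (16%, 8.34–28.5%). Besides Dsc1, Cdh1, which encodes E-cadherin, had an intronic site with 3.97 in adult and 3.11 in aged/anti-IL-17A/F. Cldn1, a tight junction gene, had a distal site with 3.61 and 3.09, and Ctnna1, which encodes α-catenin, a promoter site that was higher in aged/anti-IL-17A/F (3.07 and 3.49) and 172 bp from a control peak.

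The list of epidermal transcription factors, which also holds the chromatin enzyme gene Ezh2, had a shared site in 13 of 24 adult-bound genes, the highest gene count of any list, but had 3.42 adult peaks per gene against 1.52 over all genes. Per peak the share was 15 of 82 (18.3%, 11.4–28.0%), close to the 19.3% of all genes. Ezh2, the methyltransferase of histone H3 lysine 27, had a site 802 bp past its TSS with 5.55 in adult and 4.12 in aged/anti-IL-17A/F and 3 matches to the NF-κB motif. Grhl3, a regulator of barrier formation, had a distal site with 5.47 and 4.81, 2 NF-κB matches and an AP-1 match.

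Elf3, an epithelial ETS factor gene, had a distal site with 5.32 in adult and 3.17 in aged/anti-IL-17A/F, and Prdm1, a repressor of terminally differentiating cells, one with 4.43 and 3.44. Trp63, the gene of p63, had a site 132534 bp past its TSS with 4.30 and 3.78 and had 5 control peaks elsewhere. Of the 13 genes, 5 had no control peak.

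AP-1 genes had a shared site in 6 of 13 adult-bound members and in 9 of 44 peaks (20.5%, 11.2–34.5%), and all 6 had a control peak elsewhere. Fosb, with 3 shared sites, had one 16002 bp before its TSS with 5.35 in adult and 5.02 in aged/anti-IL-17A/F. Mafg, a small Maf partner gene, had an intronic site with 5.41 and 3.65, Junb one with 4.56 and 2.93, and Fos one 43823 bp before its TSS with 4.30 and 4.12. Of these 4 sites, each the strongest shared site of its gene in adult, 3 held an NF-κB motif. The Junb site among them was 685 bp from a control peak. The other shared site of Junb, with 2.96 in adult, overlapped an aged/anti-IL-17A/F peak of 2141 bp with a value of 14.5 that also covered an adult peak called in every condition (19.7) and a control peak (18.8), so the value of 14.5 cannot be assigned to the shared site.

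Genes of the NF-κB proteins themselves had p65 peaks in every condition. All 11 genes of NF-κB subunits and inhibitors had an adult peak, a control peak and an aged/anti-IL-17A/F peak, and 76.7% of their 30 adult peaks were called in every condition, against 40.7% over all protein-coding genes. These peaks were strong, with a median adult fold enrichment of 7.17 against 3.58 over all protein-coding genes. A shared site was found at 4 of the 11, in 5 of 30 peaks (16.7%, 7.34–33.6%). Nfkbiz, a nuclear co-activator gene induced by IL-17, had a site 49254 bp past its TSS with 4.51 in adult and 2.64 in aged/anti-IL-17A/F. Nfkbia, which encodes the inhibitor IκBα, had one 31536 bp past its TSS with 3.33 and 3.85, beside 6 control peaks.

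Bcl3, an atypical inhibitor gene, had a site 640 bp from a control peak, with 3.29 in adult and 3.42 in aged/anti-IL-17A/F. Nfkb1, the gene of p50, had a site with 2.91 and 2.53. The strongest shared sites of these 4 genes lay away from the promoter, 8196 to 49254 bp from the TSS.

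Genes that restrain the pathway had a shared site in 4 of 10 adult-bound members and in 6 of 29 peaks (20.7%, 9.85–38.4%). Tnip1, a partner of A20, had an intronic site with 4.92 in adult and 3.92 in aged/anti-IL-17A/F, and Tnfaip3, the gene of A20, a distal site with 3.46 and 3.27. Pdlim2, which promotes degradation of p65, had a promoter site with 3.53 and 2.99. Tax1bp1, an adaptor of A20, had a promoter site with 3.24 and 3.11 and was the only one of the 4 without a control peak.

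Upstream kinases and adaptors had a shared site in 4 of 13 adult-bound genes and in 5 of 21 peaks (23.8%, 10.6–45.1%). Ube2n, a ubiquitin-conjugating enzyme of the pathway, had a promoter site with 4.38 in adult and 3.53 in aged/anti-IL-17A/F and its nearest control peak was 793979 bp away. Map3k14, the gene of NIK, had a promoter site with 3.999 and 3.15, and the adaptor genes Traf2 and Traf5 had sites with 3.58 and 3.49 and with 3.39 and 3.02.

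Among 6 adult-bound genes of IL-17 receptors and targets, which had 6 adult peaks, Il17ra alone had a shared site (1 of 6 peaks, 16.7%, 3.01–56.4%). It lay over a coding exon, 177 bp past the TSS, with 2.91 in adult and 2.41 in aged/anti-IL-17A/F, a GC content of 75.1% and no NF-κB or AP-1 motif. Il17ra encodes the receptor subunit through which IL-17A and IL-17F signal, and it had no control peak. Both values were low in their lists, at percentiles 21.2 and 3.19.

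Cytokine and chemokine genes had a shared site in 3 of 16 adult-bound members and in 4 of 26 peaks (15.4%, 6.15–33.5%). Il15, a cytokine of T and NK cells, had a distal site with 4.18 in adult and 3.41 in aged/anti-IL-17A/F. Cxcl14, an epithelial chemokine gene, had 3.02 and 2.57, and Il34, a growth factor of Langerhans cells, had an intronic site that was higher in aged/anti-IL-17A/F (2.62 and 4.80). The aged/anti-IL-17A/F peak at Cxcl14 was near the calling limit, with a −log10 q of 4.88.

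Cytokine receptors and JAK–STAT genes had a shared site in 7 of 25 adult-bound members, 5 without a control peak, and in 10 of 55 peaks (18.2%, 10.2–30.3%). Il13ra1, a receptor subunit for IL-13, had a promoter site with near-equal values of 4.92 in adult and 4.88 in aged/anti-IL-17A/F. Osmr, the oncostatin M receptor gene, had a site 714 bp before its TSS with 4.82 and 5.84, next to 3 control peaks elsewhere. Socs3, a feedback inhibitor of JAK–STAT signalling, had a promoter site with 4.58 and 2.82, and Il1rap, the shared subunit of IL-1 family receptors, one with 4.36 and 2.73.

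TNF receptor and cell death genes had a shared site in 6 of 16 adult-bound members, 5 of them without a control peak (66.3% over all genes with a shared site), and in 6 of 24 peaks (25%, 12–44.9%). Bcl2l11, which encodes the death-promoting BIM, had a promoter site with 3.95 in adult and 2.81 in aged/anti-IL-17A/F. Tnfrsf10b, a death receptor gene, had one 21 bp past its TSS with 3.50 and 2.82. Eda2r, an ectodysplasin receptor gene, had 3.54 and 4.19 and was higher in aged/anti-IL-17A/F.

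Notch pathway genes had a shared site in 5 of 16 adult-bound members and in 6 of 32 peaks (18.8%, 8.89–35.3%). Hes1, a Notch target gene, had a site 1187 bp before its TSS with 4.44 in adult and 3.42 in aged/anti-IL-17A/F, 622 bp from a control peak. Maml3, a Notch co-activator gene, had an intronic site with 4.36 and 4.26. Adam17, a protease gene, had a promoter site with 2.85 and 2.81.

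EGF receptor and ligand genes had a shared site in 4 of 14 adult-bound members and in 4 of 26 peaks (15.4%, 6.15–33.5%). The ligand genes Hbegf (3.52 in adult, 3.95 in aged/anti-IL-17A/F) and Btc (2.56, 2.99) were higher in aged/anti-IL-17A/F, and Tgfa (3.30, 2.82) and the receptor gene Egfr (2.999, 2.25) were lower. The aged/anti-IL-17A/F peak at Egfr was near the calling limit, with a −log10 q of 3.53. Wnt, hedgehog and hair follicle stem cell genes had one in 4 of 13 adult-bound members, at Ptch1, the hedgehog receptor gene (4.54, 2.79), Nfatc1, a factor of quiescent hair follicle stem cells (4.38, 3.25), Wnt10b (3.54, 4.12) and Foxc1 (3.43, 3.20). Per peak this was 4 of 22 (18.2%, 7.31–38.5%). The Wnt10b site was 449 bp from a control peak.

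Of 16 adult-bound histone modifier genes, 5 had a shared site and 4 of these lacked a control peak, with 5 of 28 peaks (17.9%, 7.88–35.6%). They included Kdm5b (3.64 in adult, 2.60 in aged/anti-IL-17A/F), Setd1b (3.48, 3.53), Brd2 (3.13, 2.23) and Hdac4 (2.53, 2.91). The aged/anti-IL-17A/F peak at Brd2 was near the calling limit, with a −log10 q of 3.89. Oxidative stress genes had a shared site in 2 of 10 members, the antioxidant enzyme genes Nqo1 (2.82, 2.95) and Txnrd1 (2.35, 2.56), and 1 of 9 genes of MHC class I and interferon had one, Irf2 (3.25, 2.66). Per peak the shares were 2 of 14 (14.3%, 4.01–39.9%) and 1 of 10 (10%, 1.79–40.4%). In these last 2 lists 57.1% of 14 and 80% of 10 adult peaks were called in every condition, against 40.7% over all protein-coding genes. Their median adult fold enrichment was 3.99 and 8.58, against 3.58 over all protein-coding genes, and strength was not matched.

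The lists of markers of other cell types were short, so their counts of adult peaks were small. Shared sites were 2 of 3 adult peaks at immune cell markers (66.7%, 20.8–93.8%), 1 of 1 at fibroblast markers (100%, 20.7–100%) and 0 of 6 at endothelial markers (0%, 0–39%), against 19.3% over all genes. Among immune cell markers, shared sites were nearest to Cd74, the invariant chain of MHC class II (4.27 in adult, 3.37 in aged/anti-IL-17A/F), and Mpeg1, a macrophage perforin (4.34, 3.67), although the latter lay in an intron of Dtx4. The fibroblast marker Pdgfra had one (4.16, 3.34), and melanocyte markers had no adult peak. The part of other cell types in the shared sites was not tested.

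Of the 3 genes with 4 shared sites, Casz1, a zinc finger factor gene, had sites from 30624 bp before to 38133 bp past its TSS, with values of 2.71 to 4.30 in adult and 2.44 to 3.47 in aged/anti-IL-17A/F. Egr1, an immediate early factor gene, had values of 2.53 to 4.45 and 2.54 to 4.50, and its first 2 sites overlapped the same aged/anti-IL-17A/F peak. Tex44 had 2.66 to 3.61 and 2.53 to 3.34, at distances of 8642 to 23802 bp. All 3 genes also had control peaks, from 2 at Casz1 to 7 at Tex44, and between 8 and 11 adult peaks in all. Control peaks lay within 1000 bp of Egr1 sites (819 and 837 bp) and of a Tex44 site (986 bp).

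At the limits of the rule, the smallest overlaps with aged/anti-IL-17A/F peaks were 17 bp at Vps52, 34 bp at 2900026A02Rik and 39 bp at Srd5a1, while the nearest adult peaks left out were 11 bp away at Scel, 18 bp at Ets2 and 20 bp at Psme3. The closest control peaks were 0 bp away at Slc41a1, where the peaks abut without overlap, 22 bp at Ptma and 43 bp at Herpud1, and the smallest overlaps that kept a peak out were 9 bp at Litaf, 57 bp at Eif5a and 87 bp at Csrnp1. The lowest −log10 q of a shared site was 2.23 in adult, at Rbms1, and 2.21 in aged/anti-IL-17A/F, at Foxo1.

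Over the autosomes and X, shared sites made up 15.7% (13.0–18.7%) of adult peaks on chromosome 7 to 23.0% (19.0–27.6%) on chromosome 12.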

How the data were processed

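p65 ChIP–seq of epidermal cells was analysed for 3 conditions, each with the merged reads of 4 mice. The 3 inputs were not analysed here. The authors trimmed reads with Trimmomatic 0.36, aligned them to mm10, merged and deduplicated them, downsampled the pools to an equal number of reads and called peaks with MACS2 at q 0.01 and a fragment length of 300. Use of the inputs in peak calling is not stated. The deposited columns are a score, a fold enrichment (a ratio), and −log10 p-values and −log10 q-values. Merging removes variation between mice, and equal read numbers do not equalise immunoprecipitation efficiency.

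Overlaps of at least 1 bp defined the sites. Genes were those of the nearest curated RefSeq TSS from the middle of the peak, which stands in for the authors' annotation. Motif matches on either strand were sought up to 100 bp from the summit. Differences weight comparison peaks to the sites' distribution over 10 bins of fold enrichment and have 95% normal intervals; shares have Wilson intervals. Both treat peaks as independent. The members and the 23 gene lists were chosen with earlier results of these data known. Named genes are the 20 strongest sites, up to 4 per list by fold enrichment, genes with 4 sites, genes the study names, and sites at each limit; other names locate these. Some list genes are not reported here. Zdhhc3 has no sequence shown because its window meets a UTR. Alternatives covered thresholds, overlap, list sizes, matching, windows and annotation. Overlap, annotation, motif and matching steps were tested on simulated data. Python 3.11.15, numpy 2.4.6, pandas 2.3.3, pysam 0.24.0 and matplotlib 3.10.9 were used, with bedtools 2.31.1 as a check.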

Additional observations from a re-analysis of the deposited data

How the results depend on the processing

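Over 16 alternatives, 127 of 159 values stayed within the 95% interval of the reported value (counts within 1.5 times), 28 moved beyond it, and 4 differences whose reported interval left out 0 changed sign. Differences whose reported interval holds 0 also took either sign. No paired analysis was possible because the reads of each condition were merged into 1 pool. The requirement that the aged/anti-IL-17A/F peak overlap no control peak was added after seeing the data; all its values stayed within the reported intervals, but the AP-1 difference from other adult peaks, 1.90 (−0.0250 to 3.83), then held 0.

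With −log10 q of at least 10 there were 1055 shared sites at 856 genes, 33.4% near a TSS, 33.2% with NF-κB, a GC content of 54.8%, and a GC difference from peaks in neither aged group of −1.16. With equal numbers of peaks there were 462 sites at 392 genes, 30.7% near a TSS, 33.6% with NF-κB, 16.9% with AP-1 and a GC content of 54.4%; differences from other adult peaks were 0.586 (NF-κB, −4.06 to 5.23) and −0.786 (GC), and from peaks in neither aged group 4.18 (NF-κB, −1.87 to 10.2), −3.31 (TSS) and −1.67 (GC). Without matching, the NF-κB difference was −3.77 from other adult peaks and 10.4 from peaks in neither aged group, where TSS and GC differed by −3.82 and −0.839.

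With the lists exchanged, NF-κB differed by −0.399 from other peaks and −3.16 from peaks in neither other list, and AP-1, TSS and GC from the latter by −4.85, 11.4 and 2.43. Windows of 50 bp gave 18.9% (NF-κB) and 7.91% (AP-1), windows of 250 bp 32.3% and 23.7% with a GC content of 54.8%. Predicted transcripts put 42.8% near a TSS, and 838 genes had a site within 10 kb of their TSS. The causes were not tested.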
